A study of Mus musculus with 7 samples.

Results

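Bile duct genes were followed through 7 mouse livers, with the secreted epithelial proteins Dmbt1 and Mmp7 at their head. The set holds 8 genes chosen by symbol: Dmbt1, Mmp7, Krt7, Krt19, Epcam, Spp1, Sox9 and Cldn7. Every probe whose annotated gene symbol was on this list was taken, which gave 1 probe for each of 7 genes and none for Spp1, the gene of osteopontin. These 7 stand among 16462 genes named on the array and 23574 probes in all. The set was proposed from the spread between the livers and the difference between the genotypes, so for the 7 genes both are descriptions, and no count of calls among them below is support for or against a difference.

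Cholangiocytes are the epithelial cells that line the bile ducts. They modify bile by moving water, chloride and bicarbonate, and they carry keratins and adhesion proteins that hepatocytes largely lack. In liver injury the ductular reaction expands small ducts and progenitor-like cells at the edge of the portal tract. Such cells are known by KRT7, KRT19, EPCAM and SOX9, and by the secreted osteopontin. Duct cells are a minority of the liver, so whole liver RNA dilutes their transcripts, and more duct cells and more RNA per duct cell cannot be told apart in it.

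The knockout livers came from 3 mice lacking C3ar1 (C3ar1 KO, numbered 2 to 4), and the comparison livers from 4 C3ar1 wild-type littermates (WT, numbered 1 to 4). C3ar1 is the receptor for the complement fragment C3a. All mice ate a chow diet, and each number stands for a separate mouse. Each array in 2 colours set the liver RNA of 1 mouse against the same pool of liver RNA from 6 WT mice. Age, sex, strain, the deleted stretch of C3ar1 and the scanner settings are not given in the sources used here, nor whether the WT mice of the arrays gave RNA to the pool.

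Values are the deposited log ratios, read as log10 of liver over pool. Neither the base nor the direction is stated in the sources used here. Liver over pool was assumed. The titles give the pool before the mouse, which does not settle the direction. If the direction ran the other way on all arrays, each sign below would be opposite. Whether every array had the same direction was not tested. Folds assume base 10. The probe of C3ar1 itself gave 0.0042, 0.0337 and 0.0514 in KO livers 2, 3 and 4, against -0.0296, -0.0318, 0.0225 and 0.0264 in WT livers 1 to 4, a difference of 0.0329 ± 0.0233 (SE; limma adjusted p = 0.884). Where this probe lies relative to the deletion is unknown, so it checks no label. KO liver 2 had the widest array, with an SD over probes of 0.0975, while the other 6 arrays had 0.0467 to 0.0676, and the number of arrays limits the precision of all that follows. Across all probes the limma comparison of KO with WT called 1 probe, that of A2ml1, which was lower in KO.

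Dmbt1 showed the widest spread between livers of any probe on the array. It encodes a large secreted glycoprotein of the scavenger receptor cysteine-rich family, made by ductal and mucosal epithelia, where it binds bacteria. Dmbt1 gave -1.31, -1.34 and -1.397 in KO livers 2, 3 and 4, against -1.25, 0.684, -1.32 and -1.25 in WT livers 1 to 4. All KO livers and 3 of the WT livers thus lay within 0.148 of each other, and WT liver 2 alone stood above the pool. In folds, WT liver 2 was 4.84-fold above the pool, and the other 6 livers were 17.8- to 24.97-fold below it. WT liver 2 exceeded the other livers by 86.0-fold (WT liver 4) to 120.8-fold (KO liver 4). How far a liver lies from the pool depends on which mice gave RNA to it, which is unknown, so the folds below the pool do not show a low level by themselves. Differences between livers do not depend on the pool. With base 10 and no measurement error, a mouse that gave 1 of 6 equal shares of a pool can lie at most 0.778 above that pool. Whether WT liver 2 came from such a mouse is unknown and was not tested.

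The Dmbt1 probe was also at the edge of each array. It was the highest of all 23574 probes in WT liver 2. It was the lowest of all probes in KO livers 2, 3 and 4 and in WT livers 3 and 4. In WT liver 1 it was second lowest, after the probe of Moxd1, a gene named here after its values were seen. Moxd1 gave -1.18, -1.20 and -0.535 in KO livers 2, 3 and 4, against -1.34, -1.30, -1.11 and -1.17 in WT livers 1 to 4, so this other gene far below the pool was low in WT liver 2 as well.

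Mmp7 followed the same layout at smaller size. It encodes matrilysin, a small secreted metalloproteinase of glandular and ductal epithelia that in the mouse intestine activates antimicrobial defensins. Mmp7 gave -0.349, -0.423 and -0.403 in KO livers 2, 3 and 4, against -0.172, 0.594, -0.572 and -0.340 in WT livers 1 to 4. WT liver 2 was again the only liver above the pool, and its Mmp7 value was the second highest of all probes on that array. The KO livers lay inside the range of the WT livers, with WT liver 3 lowest of all. WT liver 2 exceeded the others by 5.83-fold (WT liver 1) to 14.7-fold (WT liver 3).

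**Figure D1:**
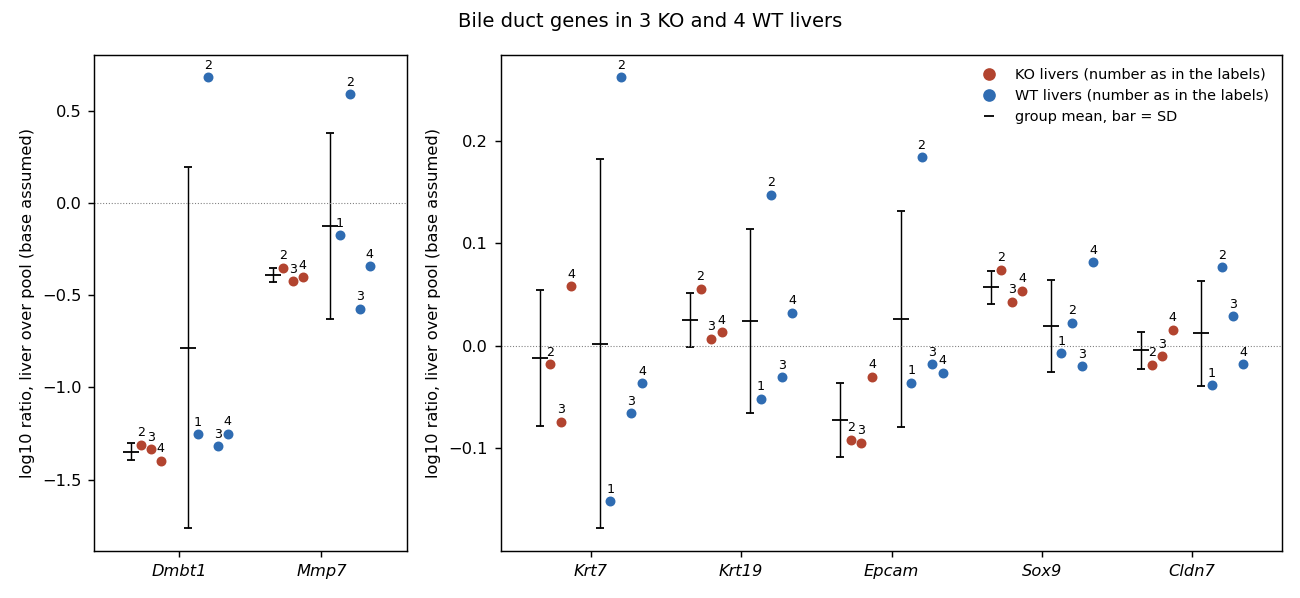
Log10 ratio of liver over pool (vertical axis) for the 7 measured bile duct genes, KO livers left of WT livers, each point 1 liver with its number, the bar the group mean with its SD. In WT, liver 2 lies far above the rest for Dmbt1 (0.684) and Mmp7 (0.594), and it is the highest liver for every gene shown except Sox9.

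Promoter sequence was looked up for the set, and the windows of 3 genes that were highest in WT liver 2 are shown so that the genes can be compared. RefSeq on GRCm38.p6 gave an entry for 5 of the 8 genes, namely Mmp7, Krt7, Epcam, Spp1 and Cldn7. Each window runs from 250 bases before to 50 bases after the start of the gene, on the plus strand. Where a gene has more than 1 entry, that at the start of the annotated gene was taken. The windows lie at chr9:7691840-7692139 (Mmp7), chr15:101412153-101412452 (Krt7) and chr17:87635729-87636028 (Epcam). Capitals mark matches to a TATA box (TATAAA) or to an AP-1 motif (TGAGTCA).
Mmp7: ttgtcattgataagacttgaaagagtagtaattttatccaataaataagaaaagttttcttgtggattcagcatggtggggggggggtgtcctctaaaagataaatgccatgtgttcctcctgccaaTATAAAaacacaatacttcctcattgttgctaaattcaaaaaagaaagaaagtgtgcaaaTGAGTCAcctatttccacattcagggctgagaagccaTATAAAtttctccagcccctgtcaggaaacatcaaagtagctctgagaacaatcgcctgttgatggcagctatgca
Krt7: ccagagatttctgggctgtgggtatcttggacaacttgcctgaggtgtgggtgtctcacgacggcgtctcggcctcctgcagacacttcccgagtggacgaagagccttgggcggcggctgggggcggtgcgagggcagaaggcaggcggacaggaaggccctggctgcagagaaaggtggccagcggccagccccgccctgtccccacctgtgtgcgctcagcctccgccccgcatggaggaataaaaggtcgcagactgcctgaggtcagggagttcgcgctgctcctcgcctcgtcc
Epcam: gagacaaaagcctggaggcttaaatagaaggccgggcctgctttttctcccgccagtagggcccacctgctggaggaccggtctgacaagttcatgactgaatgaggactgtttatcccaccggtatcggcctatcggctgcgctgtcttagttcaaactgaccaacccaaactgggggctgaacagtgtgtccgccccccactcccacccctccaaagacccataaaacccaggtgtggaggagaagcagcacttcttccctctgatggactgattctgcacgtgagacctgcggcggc
In the Mmp7 window TATAAA begins 123 and 26 bases before the start, and TGAGTCA, the letters bound by Fos and Jun dimers, begins 63 bases before it. The search covered both strands, and the matches do not overlap each other. Of 32851 RefSeq promoters of this length, 13.6% held TATAAA and 5.20% held TGAGTCA. The Notch effector RBPJ was searched as TGGGAA, which 25.6% of the promoters held. SOX factors were searched as ACAATGG, which 3.66% held, and the HNF1 motif was held by 0.00913%. No other match was found in the windows of Mmp7, Krt7, Epcam and Cldn7, which says only that these letters are not in these windows.

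The duct keratins Krt7 and Krt19 form the intermediate filaments of cholangiocytes and are the usual histological markers of bile ducts. Krt7 gave -0.0178, -0.0741 and 0.0581 in KO livers 2, 3 and 4, against -0.151, 0.262, -0.0657 and -0.0364 in WT livers 1 to 4. The KO livers fell inside the WT range, whose ends were WT liver 1 and WT liver 2. Krt19 gave 0.0558, 0.0068 and 0.0132 in KO livers 2, 3 and 4, against -0.0515, 0.147, -0.0306 and 0.0322 in WT livers 1 to 4. WT liver 2 was the highest and WT liver 1 the lowest for both keratins. WT liver 2 exceeded the next highest liver by 1.60-fold for Krt7 (KO liver 4), and by 1.24-fold for Krt19 (KO liver 2). On the array of WT liver 2, the Krt7 probe was number 54 from the top and the Krt19 probe number 313.

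Epcam encodes the homophilic adhesion protein of duct and progenitor cells. Epcam gave -0.0915, -0.0945 and -0.0301 in KO livers 2, 3 and 4, against -0.0357, 0.184, -0.0177 and -0.0259 in WT livers 1 to 4. Every liver but WT liver 2 lay below the pool, and KO liver 4 fell within the range of the low WT livers. WT liver 2 exceeded the next highest liver, WT liver 3, by 1.59-fold, and the probe was number 161 from the top of its array. Cldn7, which encodes a tight junction protein of epithelia, gave -0.0184, -0.0101 and 0.016 in KO livers 2, 3 and 4, against -0.0385, 0.0767, 0.0291 and -0.0177 in WT livers 1 to 4. WT liver 2 was highest here too, by 1.12-fold over WT liver 3, within a range of values far narrower than that of Dmbt1.

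Sox9 encodes a transcription factor of developing and mature bile ducts. Sox9 gave 0.0743, 0.0434 and 0.0538 in KO livers 2, 3 and 4, against -0.0071, 0.0227, -0.0199 and 0.0815 in WT livers 1 to 4. It was the exception in the set, since its highest liver was WT liver 4 and WT liver 2 lay below all KO livers. In all, 6 of the 7 genes were highest in WT liver 2. Over the 16462 named genes, 15.1% were highest in WT liver 2, and among probes with an SD of at least 0.1 it was 20.1%. The set was chosen with the spread between these livers known, which favoured such a count, so the 6 of 7 is a description. With each array centred on its median, or quantile or scale normalized, which was chosen after seeing the data, the count stayed at 6. WT liver 2 had the lowest array median (-0.0008), so centring could not lower the count.

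Set out by spread, all 7 genes had an SD over the 7 livers above the median of all probes, 0.0364. Dmbt1 ranked 1 of 23574 with an SD of 0.756, Mmp7 17 with 0.386, Krt7 602 with 0.133, Epcam 1864 with 0.0937, and Krt19 4637 with 0.0651. Sox9 and Cldn7 ranked 10834 and 10860, with SDs of 0.0389 and 0.0388, close to the median probe. The 99th percentile of all probes was 0.170, passed by Dmbt1 and Mmp7. These ranks were used in choosing the set and are a description. Without WT liver 2 the SD of Dmbt1 was 0.0553 (rank 6242) and that of Mmp7 0.131 (rank 656).

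**Figure D2:**
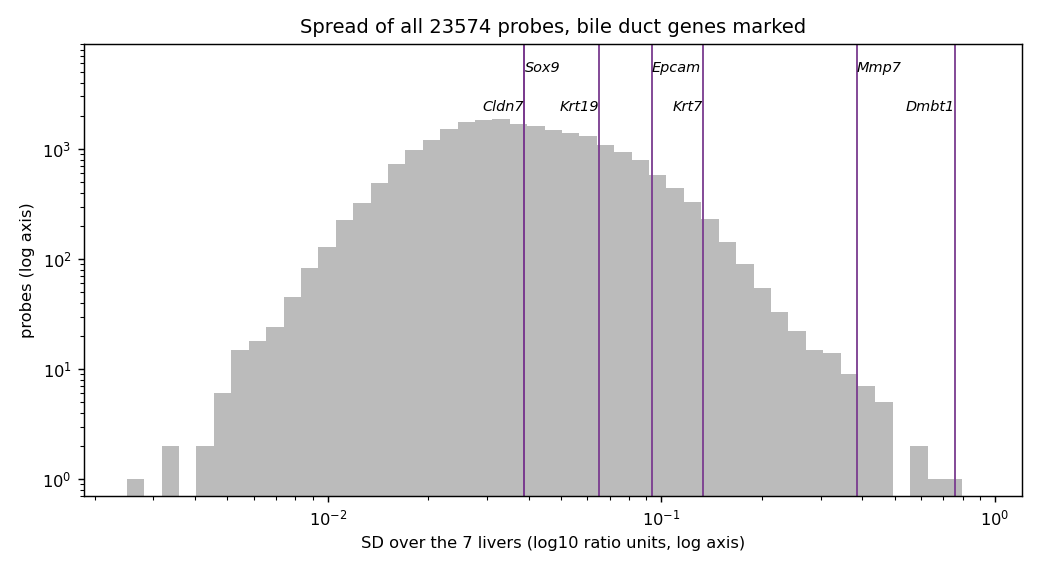
Number of probes (vertical log axis) by SD over the 7 livers in log10 ratio units (horizontal log axis), with a line at each measured bile duct gene. Dmbt1 (0.756) and Mmp7 (0.386) lie in the right tail, past the 99th percentile of 0.170, while Sox9 and Cldn7 lie beside the median of 0.0364.

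For Dmbt1 and Mmp7 the difference between the genotypes was far smaller without WT liver 2. Dmbt1 averaged -1.35 ± 0.0446 in KO livers (SD, n = 3) and -0.785 ± 0.980 in WT livers (SD, n = 4). The KO minus WT difference was -0.563 ± 0.470 (SE), or 3.66-fold lower in KO. Without WT liver 2 it was -0.0737 ± 0.0315, and between group medians it was -0.0848. Mmp7 averaged -0.392 ± 0.0379 in KO livers and -0.123 ± 0.505 in WT livers, a difference of -0.269 ± 0.243 (SE), or 1.86-fold lower in KO. Without WT liver 2 it was -0.0301 ± 0.0945, and between group medians it was -0.147. For both genes the SD within WT exceeded the difference.

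Epcam averaged -0.0720 ± 0.0364 in KO livers and 0.0262 ± 0.106 in WT livers, a difference of -0.0983 ± 0.0546 (SE), or -0.0456 ± 0.0234 without WT liver 2. Krt7 averaged -0.0113 ± 0.0663 in KO livers and 0.0022 ± 0.180 in WT livers, a difference of -0.0135 ± 0.0914, which turned to 0.0732 ± 0.0437 without WT liver 2. Krt19 averaged 0.0253 ± 0.0266 in KO livers and 0.0244 ± 0.0894 in WT livers, a difference of 0.000867 ± 0.0466, or 0.0419 ± 0.0282 without WT liver 2. The sign for Krt7 and the size for Krt19 thus changed without that liver, but not there alone. Over 14 alternative settings the sign turned in 4 for Krt7 and in 6 for Krt19. Sox9 averaged 0.0572 ± 0.0157 in KO livers and 0.0193 ± 0.0451 in WT livers, a difference of 0.0379 ± 0.0270, or 0.0390 ± 0.0307 without WT liver 2. Cldn7 averaged -0.00417 ± 0.0180 in KO livers and 0.0124 ± 0.0514 in WT livers, a difference of -0.0166 ± 0.0296, which turned to 0.00487 ± 0.0239 without WT liver 2.

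By direction, 5 of the 7 genes averaged lower in KO and 2 higher. Over all probes, 43% were lower in KO and 57% higher. Without WT liver 2 the split was 3 lower and 4 higher. In the limma fit of all probes 0 of the 7 were among the calls, with 0.00424% of probes called, and 0 had an unadjusted p under 0.05, with 4.47% of probes there. Since the set was chosen on this contrast, nothing is read from these counts. The KO and WT values overlapped for every gene of the set, while they did not overlap for 5.26% of probes.

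**Figure D3:**
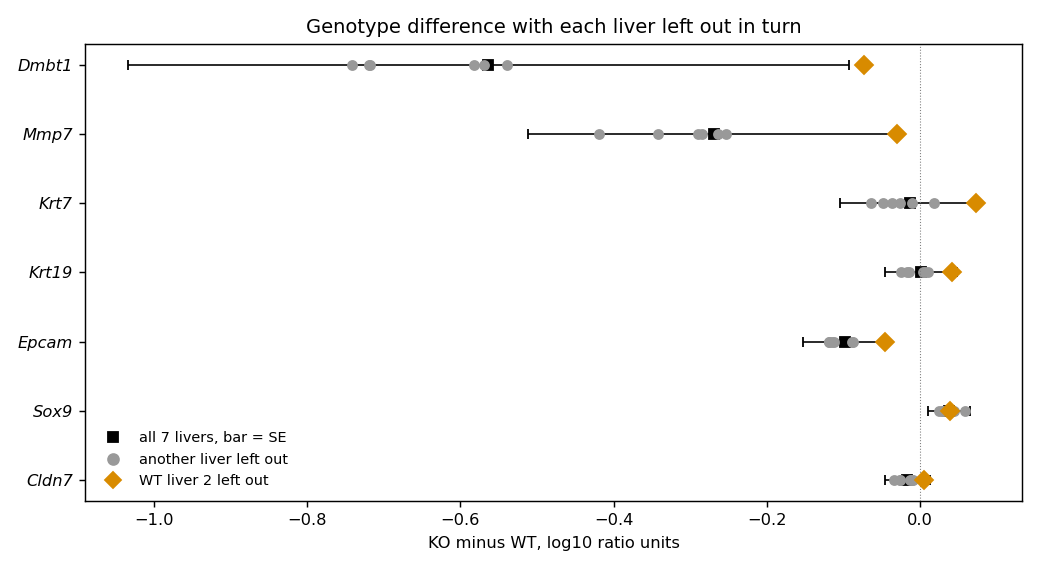
KO minus WT difference in log10 ratio units (horizontal axis) for each bile duct gene, with all 7 livers (squares, bar = SE) and with each liver left out in turn. Leaving out WT liver 2 (diamonds) brought Dmbt1 to -0.0737 and Mmp7 to -0.0301, against -0.563 and -0.269 with all livers.

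Among themselves, the genes that were high in WT liver 2 correlated over the 7 livers, which share the pool channel. Pearson's r with Dmbt1 was 0.960 for Mmp7, 0.943 for Epcam, 0.856 for Krt7, 0.823 for Krt19 and 0.783 for Cldn7 (n = 7). Sox9 had an r of -0.150 with Dmbt1. Over the 6 livers without WT liver 2, a choice made after seeing the data, r with Dmbt1 was 0.535 for Mmp7, 0.147 for Epcam, -0.711 for Krt7, -0.184 for Krt19 and -0.689 for Cldn7. Every positive r with Dmbt1 was thus smaller or turned without that 1 liver. Krt7 and Krt19 kept an r of 0.667 without WT liver 2, against 0.908 with it. Krt19 and Sox9 had 0.932 without it, against 0.391 with it.

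The probes most like Dmbt1 were sought among 1269 named probes with an SD of at least 0.1 over the livers. The 5 with the highest r were Muc4, a membrane mucin (0.984), Cxcl5, a chemokine that attracts neutrophils (0.983), Cckar, the cholecystokinin receptor of the gallbladder and pancreas (0.981), S100g, a calcium-binding protein of epithelia (0.980), and Spink4, a secreted protease inhibitor (0.976). For Mmp7 they were S100g (0.970), Cxcl5 (0.963), Ccno, a cyclin-like protein of multiciliated cells (0.947), Cckar (0.940) and Tob1, an antiproliferative protein (0.936). Cxcl5, Cckar and S100g stood in both lists. All 7 genes were highest in WT liver 2, as the way they were chosen favours, and r without WT liver 2 ran from -0.351 (Spink4) to 0.383 (Cxcl5) with Dmbt1, and from 0.0445 (Cckar) to 0.848 (Ccno) with Mmp7.

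S100g gave -0.231, -0.246 and -0.159 in KO livers 2, 3 and 4, against -0.193, 0.484, -0.307 and -0.246 in WT livers 1 to 4. Muc4 gave -0.135, -0.0596 and -0.107 in KO livers 2, 3 and 4, against -0.107, 0.329, -0.0718 and -0.107 in WT livers 1 to 4. Spink4 gave -0.0888, -0.122 and -0.157 in KO livers 2, 3 and 4, against -0.196, 0.355, -0.175 and -0.171 in WT livers 1 to 4. In all 3, WT liver 2 was the only liver above the pool, as for Dmbt1 and Mmp7.

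**Figure D4:**
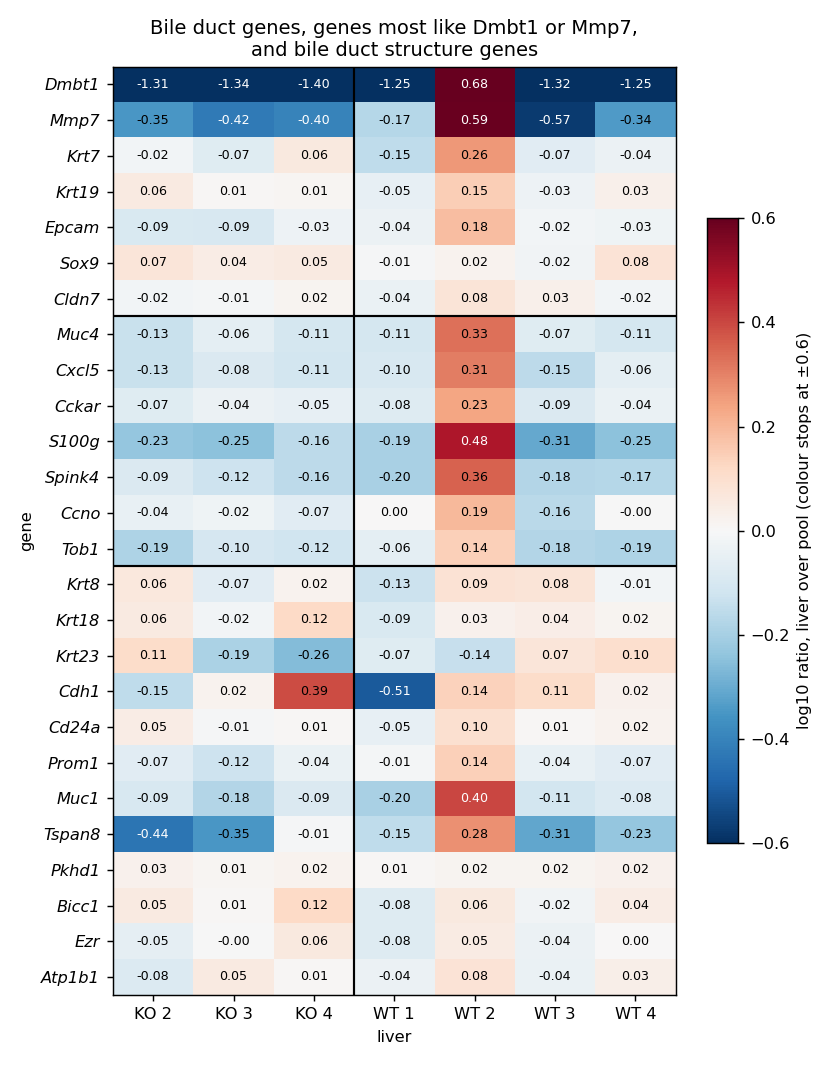
Log10 ratio of liver over pool for each liver (columns, KO left of WT) of the 7 bile duct genes, the 7 genes most like Dmbt1 or Mmp7, and 12 genes of bile duct structure (rows, separated by lines). The colour stops at 0.6 in either direction, and the column of WT liver 2 holds the highest value of 6 bile duct genes, all 7 like genes and 6 structure genes.

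Other genes of bile duct biology were read from lists, with the probes of a gene averaged. Over 18 lists, 157 different genes were measured and limma called 0 of them, where 0.00607% of all genes were called. The smallest adjusted p was 0.872. At an unadjusted p of 0.05, 11 passed, 9 higher and 2 lower in KO, which is 7.01% of them, where 4.79% of all genes did. The median KO minus WT difference over all probes was 0.00555.

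Of the bile duct structure genes 12 of 14 were measured, of which 5 averaged higher and 7 lower in KO, with a median difference of -0.00234. The simple epithelial keratins Krt8 and Krt18, which hepatocytes also make, differed by -0.00145 ± 0.0574 and 0.0543 ± 0.0420 (SE), and Krt23 by -0.104 ± 0.0961. In this list 6 of the 12 genes were highest in WT liver 2. Among these, and named after their values were seen, were the mucin Muc1 and the tetraspanin Tspan8. Muc1 gave -0.0945, -0.177 and -0.0886 in KO livers 2, 3 and 4, against -0.197, 0.402, -0.111 and -0.0807 in WT livers 1 to 4. Tspan8 gave -0.440, -0.348 and -0.0086 in KO livers 2, 3 and 4, against -0.153, 0.276, -0.310 and -0.233 in WT livers 1 to 4. For both genes WT liver 2 was the only liver above the pool. By contrast, Krt23 lay at -0.138 in WT liver 2, the lowest of the WT livers. KO livers 3 and 4 were lower still for Krt23, at -0.192 and -0.259.

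Of the genes of bile duct transport 6 of 8 were measured, of which 4 averaged higher and 2 lower in KO (median 0.0197). Cftr, the chloride channel of the duct cell's apical membrane, gave 0.0002, -0.035 and 0.0358 in KO livers 2, 3 and 4, against -0.0705, 0.123, -0.0576 and -0.0879 in WT livers 1 to 4. It was highest in WT liver 2, and so were 3 of the 6 genes. Slc4a2, the chloride-bicarbonate exchanger, differed by 0.0379 ± 0.0229 (SE) and Aqp1, a water channel, by 0.0299 ± 0.0608. Of the mucosal defence and trefoil genes all 10 were measured, of which 5 averaged higher and 5 lower in KO (median 0.00571). Pigr, the receptor that carries IgA into bile, differed by 0.0566 ± 0.0436, Tff3 by 0.0395 ± 0.0215 and Tff2 by -0.0290 ± 0.0310 (SE), and 4 of the 10 genes were highest in WT liver 2. One of the 4 was Sftpd, a collectin of mucosal surfaces named after its values were seen, at 0.303 in WT liver 2 and below the pool in every other liver. In the same list Muc5b (-0.0435) and Lcn2 (-0.0017), also named after their values were seen, were lowest in WT liver 2.

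Of the biliary transcription factors 7 of 8 were measured, 4 higher and 3 lower in KO (median 0.0109). Onecut1 and Onecut2, which act in duct development, differed by -0.00389 ± 0.0315 and 0.0698 ± 0.0475 (SE), and Sox4 by 0.0109 ± 0.0257. Of the Notch pathway, which drives duct fate in the embryonic liver, 9 of 10 genes were measured, 7 higher and 2 lower in KO (median 0.0281), with Jag1 (ligand) at 0.0281 ± 0.0184, Notch1 (receptor) at 0.0492 ± 0.0311 and Hes1 (target) at 0.0337 ± 0.0266. Of the YAP pathway all 9 genes were measured, 5 higher and 4 lower (median 0.0250), with Yap1 at -0.0328 ± 0.0225 and its targets Ccn1 and Ccn2 at 0.0448 ± 0.0383 and 0.0764 ± 0.172. No Notch or YAP gene was highest in WT liver 2. Of the ductular reaction and progenitor genes 9 of 10 were measured, 4 higher and 5 lower (median -0.00217), and 1 was highest in WT liver 2. Tnfrsf12a, the TWEAK receptor, differed by 0.0644 ± 0.0420, the fetal albumin relative Afp by -0.0132 ± 0.0481 and the hyaluronan receptor Cd44 by -0.00935 ± 0.0166.

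Relatives of Mmp7, Dmbt1, Cldn7 and osteopontin were read next. Of the matrix metalloproteinases and inhibitors 16 of 17 were measured, 10 higher and 6 lower in KO (median 0.0180), and 4 were highest in WT liver 2. The gelatinases Mmp2 and Mmp9 differed by 0.0532 ± 0.0323 and 0.0215 ± 0.0274 (SE), and the inhibitor Timp1 by 0.0199 ± 0.0464. Of the scavenger receptor cysteine-rich family, to which Dmbt1 belongs, all 11 other genes listed were measured, 10 higher and 1 lower in KO (median 0.0301), and none was highest in WT liver 2. The macrophage genes Cd163 and Cd5l differed by 0.116 ± 0.0743 and 0.0391 ± 0.104, and Lgals3bp by 0.0420 ± 0.0496. Of the claudins 11 were measured, 8 higher and 3 lower (median 0.0178), none highest in WT liver 2, with Cldn1 at 0.0526 ± 0.05003, Cldn2 at 0.0199 ± 0.0203 and Cldn3 at -0.0118 ± 0.0521. Of the osteopontin receptors 8 were measured, 4 higher and 4 lower (median 0.00334), 2 of them highest in WT liver 2, with Itgav at 0.0120 ± 0.0161 and Itgb1 at -0.00193 ± 0.0308.

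**Figure D5:**
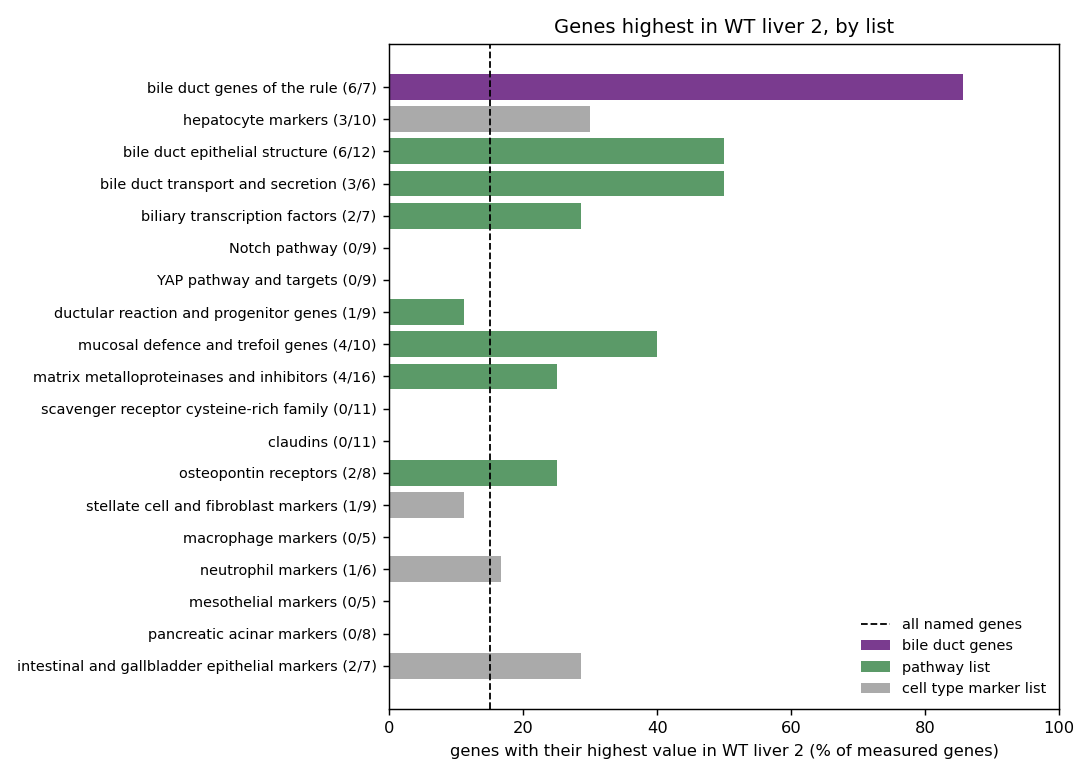
Percent of measured genes that were highest in WT liver 2 (horizontal axis) for the bile duct genes and each gene list, with the counts beside the names and a dashed line at 15.1%, the share over all named genes. The bile duct genes stand at 6 of 7 and bile duct structure at 6 of 12, while Notch, YAP, claudin and scavenger receptor lists stand at 0. The genes and lists were chosen with earlier results of these data known, so the bars are descriptions.

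Markers of other cell types were read beside the high values of WT liver 2, as summed log ratios over each list. Intestinal and gallbladder epithelial markers, 7 of 8 measured, summed to -0.202 to 0.593 in KO livers and -0.278 to 0.335 in WT livers, with the lowest sum in WT liver 2. That sum held -0.269 for Fabp2 and -0.140 for Lgals4, while Muc13 (0.0555) and Krt20 (0.056) were highest in WT liver 2, all 4 named after their values were seen. Of the 7 genes, 4 averaged higher and 3 lower in KO (median 0.0117), with Vil1 at 0.0245 ± 0.0232 and Cdh17 at 0.0117 ± 0.0179 (SE). Pancreatic acinar markers, 8 of 10 measured, summed to 0.170 to 0.183 in KO livers and -0.0899 to 0.171 in WT livers, of which WT liver 2 had -0.0719. Of these, 6 averaged higher and 2 lower (median 0.0194), with Cpa1 at 0.0204 ± 0.0156 and Ctrb1 at 0.0164 ± 0.0216. Hepatocyte markers, all 10 measured, summed to 0.0775 to 1.04 in KO livers and -0.488 to 0.883 in WT livers, with WT liver 2 highest in WT. Of these, 8 averaged higher and 2 lower (median 0.0307), with Alb at 0.0324 ± 0.0392 and Ttr at 0.0448 ± 0.0470. A log ratio to a pool does not show which markers are near 0.

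Macrophage markers, 5 of 6 measured, summed to -0.831 to 0.418 in KO livers and -1.16 to -0.241 in WT livers, and all 5 averaged higher in KO (median 0.0402), with Adgre1 at 0.0402 ± 0.130 and Clec4f at 0.0910 ± 0.0526 (SE). Neutrophil markers, all 6 measured, summed to -0.462 to 0.369 in KO livers and -0.310 to -0.170 in WT livers, with 4 higher and 2 lower (median 0.0112), S100a8 at 0.0349 ± 0.0702 and S100a9 at -0.0223 ± 0.135. Both sums were highest in KO liver 4. Without that liver the median difference turned to -0.00674 for the macrophage list and -0.00289 for the neutrophil list. Stellate cell and fibroblast markers, 9 of 10 measured, summed to -0.133 to 0.351 in KO livers and -0.761 to -0.145 in WT livers, with 7 higher and 2 lower (median 0.0406), Col1a1 at 0.147 ± 0.0661 and Col1a2 at 0.0813 ± 0.0257. Mesothelial markers, 5 of 6 measured, summed to 0.178 to 0.429 in KO livers and -0.352 to -0.0129 in WT livers. All 5 averaged higher in KO (median 0.103), with Msln at 0.116 ± 0.0316 and Upk1b at 0.103 ± 0.0357, and none passed after adjustment (limma adjusted p of 0.872 for both). None of the 5 mesothelial markers was highest in WT liver 2. The part of any of these cell types in the bile duct values was not tested.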

How the data were processed

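Liver RNA of 3 KO and 4 WT mice was measured on arrays in 2 colours against 1 pool. The deposited table holds a log ratio per probe and array, read here as log10; per the labels, channel 1 was Cy3 and channel 2 Cy5. The series' design text mentions dye swaps. The authors' background correction and normalization are not given in the sources used here. Their columns were used unchanged. Probes were named through the platform annotation, updated against the GRCm38.p6 gene table: 17824 had 1 symbol, 50 several and 5700 none.

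Each probe was fitted with limma 3.58.1 in R 4.3.3 (lmFit, eBayes without trend, KO minus WT, two-sided, Benjamini-Hochberg over 23574 probes, threshold 0.05), and genes of the lists with their probes averaged over 16462 genes. Errors are the SD over livers or the SE of the fit. The fit was tested on simulated data with normal noise of the same SD for every probe. It was thus not tested on probes of unequal spread or with an outlying liver. Groups and numbers came from the titles. The members and lists were chosen with earlier results of these data known. Named genes were the members, the first 3 measured genes of each pathway list, the first 2 of each marker list, and the 5 probes of highest Pearson r with Dmbt1 or Mmp7. Alternatives were 3 normalizations, a filter on variation, array weights, group medians, a replicate block and each liver left out. No 2 arrays shared identical values in over 0.119% of probes. Python 3.11.15 made the summaries.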

Additional observations from a re-analysis of the deposited data

Results flagged for a closer look

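Among the 4 WT livers, some genes had 1 liver far from the other 3, judged by the gap to the nearest liver divided by the range of the group, against Dixon's critical value for groups of 4. Chance alone gives this for about 1 in 20 groups, and 5.10% of all probes met it, 1.68% through WT liver 2. Of 60 named genes tested 9 met it, 8 of them through WT liver 2, but this is no test for them: the bile duct genes were chosen for their spread between these livers, and Muc4, Cckar, S100g and Spink4 for following Dmbt1 or Mmp7, so a gap at WT liver 2 was favoured by the choice. The ratios of gap to range are given as descriptions. WT liver 2 stood high for Dmbt1 (0.965), Epcam (0.918), Muc4 (0.919), Cckar (0.86), S100g (0.856), Spink4 (0.956) and Cftr (0.857). WT liver 2 stood low for Cdh17, an intestinal cadherin (0.97), at -0.0149 with the other WT livers at 0.0145 to 0.0154. WT liver 3 stood low for the macrophage receptor Cd163 (0.94), at -0.244 with the other WT livers at 0.0506 to 0.0695.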

How the results depend on the processing

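The count of probes called between the genotypes was 1. It was 1 with each array centred on its median and with array weights, and 0 with quantile normalization, with scale normalization and with the replicate block. It was 4 when the less variable probes were left out, and 0 to 3 with 1 liver left out in turn: 0 without KO liver 2, 3 or 4 or WT liver 3, 1 without WT liver 2, 2 without WT liver 1 and 3 without WT liver 4. Some KO and WT livers share a number, which does not show whether they were paired. Same-numbered livers had deviations that correlated at -0.137, -0.205 and -0.154. For differently numbered livers the correlations ran from -0.293 to 0.329, so these values do not settle it. For the bile duct genes, the difference of Dmbt1 ran from -0.742 to -0.0737 with 1 liver left out and from -0.720 to -0.0848 under the other alternatives. That of Mmp7 ran from -0.419 to -0.0301 and from -0.285 to -0.107. WT liver 2 gave the end nearest 0 among the livers left out for both. The sign turned in 4 of 14 alternatives for Krt7, 6 of 14 for Krt19 and 1 of 14 for Cldn7, and in 0 of 14 for Dmbt1, Mmp7, Epcam and Sox9. The median difference of a list turned sign under at least 1 alternative for 10 of 18 lists. The cause was not tested.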
